A study of Mus musculus with 6 samples.

Results

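The 34 genes described here encode the machinery that burns fatty acids, makes and uses ketone bodies and answers to peroxisome proliferator-activated receptors (PPARs). They were taken by gene symbol from the deposited table of 55335 gene rows, each symbol matched 1 row, and all 34 were abundant enough to be tested among 14107 genes. By role they were 2 regulators, 5 genes of fatty acid activation and the carnitine shuttle, 9 of the mitochondrial oxidation spiral, 3 auxiliary enzymes, 3 of electron transfer, 4 peroxisomal enzymes, 3 of ketone body metabolism and 5 PPAR targets. RNA-seq was made from intestinal tissue of 3 wild-type (WT) mice and 3 mice labelled Trmt6-/-, all with colitis induced by dextran sulfate sodium (DSS), a polymer that damages the intestinal lining. Trmt6 encodes the non-catalytic subunit of a tRNA 1-methyladenosine methyltransferase, and the series asks how its loss changes the course of colitis. Both groups received DSS, and no untreated mice were analysed here. Strain, age, DSS dose, intestinal segment and the way the allele was made are not given in the sources used here.

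Library totals ran from 15213972 to 16972758 counts. Levels are given as CPM, counts scaled to a common library size after the TMM correction for library composition, in the order KO72, KO73 and KO75 for the libraries labelled Trmt6-/- and WT185, WT186 and WT187 for WT. Trmt6 stood at 39.8, 34.2 and 36.2 CPM against 30.9, 18.7 and 23.1 CPM. Every library labelled Trmt6-/- thus lay above every WT library (log2 fold change 0.60 ± 0.21 (SE), edgeR adjusted p = 0.335). The targeted transcript was not lower under the Trmt6-/- label, and every direction below rests on the labels. Markers of small intestinal absorptive cells summed to between 13797 and 31214.5 CPM in WT and between 22896 and 35577 CPM under the Trmt6-/- label (9 of 10 markers matched, all detected). Colonocyte markers summed to between 386 and 890 CPM over both groups, most of it from Car4 (139 to 433 CPM) and Slc26a3 (174 to 425 CPM). Of the 10, 3 were at 0 in every library, Hoxd10, Hoxb13 and Hoxd13, which define distal colon, and Car1 was at 0 in all but WT185. The 8 adipocyte markers summed to between 60.8 and 224 CPM over both groups, nearly all of it from Cidec (17.2 to 100.02 CPM) and Lipe (43.4 to 124 CPM), while Adipoq did not exceed 0.0564 CPM in any library and Lep, Cfd and Retn were at 0. Smooth muscle markers summed to at most 17.8 CPM and leukocyte markers to between 64.1 and 437 CPM. Fabp6 and Slc10a2, genes of the ileum, summed to 752, 550 and 79.4 CPM against 766, 5.73 and 0.779 CPM. Gata4 and Lct, genes of the proximal small intestine, summed to 202, 903 and 796 CPM against 912, 3463 and 2805 CPM. These markers of gut position thus differed between libraries of the same group as well as between groups.

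Fatty acids enter oxidation as acyl-CoA, cross the inner mitochondrial membrane as carnitine esters and are shortened step by step to acetyl-CoA, while peroxisomes shorten the longest chains first. Ketone bodies are made from acetyl-CoA in mitochondria and are turned back into acetyl-CoA in the cells that burn them. PPAR-alpha, a nuclear receptor that binds fatty acids, pairs with the retinoid X receptor on repeats of the hexamer AGGTCA and induces much of this machinery, and absorptive cells of the small intestine use it to handle dietary fat.

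None of the 34 genes passed the threshold of an adjusted p below 0.05 with edgeR, against 0.0425% of all genes tested. An unadjusted p below 0.05 was reached by 7, of which 4 had higher levels under the Trmt6-/- label (Slc25a20, Acadl, Eci2 and Acot1) and 3 had lower ones (Ppara, Bdh1 and Acat1). Among all genes tested 12.1% reached that level, 6.15% higher and 5.94% lower. Without KO73 there were 1 higher and 2 lower members at that level, where 3.85% and 3.29% of all genes were. Without KO75 there were 2 and 2 (5.04% and 5.22% of all genes), and without WT187 2 and 2 (4.32% and 4.86%). Without KO72 there were 4 higher and 1 lower (5.24% and 4.35%). Without WT185 there were 2 higher and 6 lower (7.58% and 6.92%), the lower ones being Ppara, Ppargc1a, Eci1, Ehhadh, Bdh1 and Acat1. The fit without WT186 is given below. DESeq2 called 2 of the 34 after adjustment, Eci2 higher and Bdh1 lower, where it called 4.49% of all genes, and limma-voom called 0. With edgeR under other settings none of the 34 passed either, where the share of all genes called was 0.0284% with upper-quartile scaling, 0.589% without a low-count filter, 0.0458% with a floor of 1 CPM in 3 libraries, 0.0413% without KO72 and 0.0138% without WT185. The log2 fold change was above 0 for 12 members and below 0 for 22, with a median of -0.24, where 46.1% of all genes were above 0 and their median was -0.033. Groups did not overlap for 6 members, Eci2 and Acot1 higher and Ppara, Eci1, Bdh1 and Acat1 lower under the Trmt6-/- label. Over all genes this held for 18.7%, 9.7% with the libraries labelled Trmt6-/- higher and 9.03% with WT higher. In bulk tissue fewer cells of a type and less RNA per cell cannot be told apart, and this holds for every value below.

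**Figure D1:**
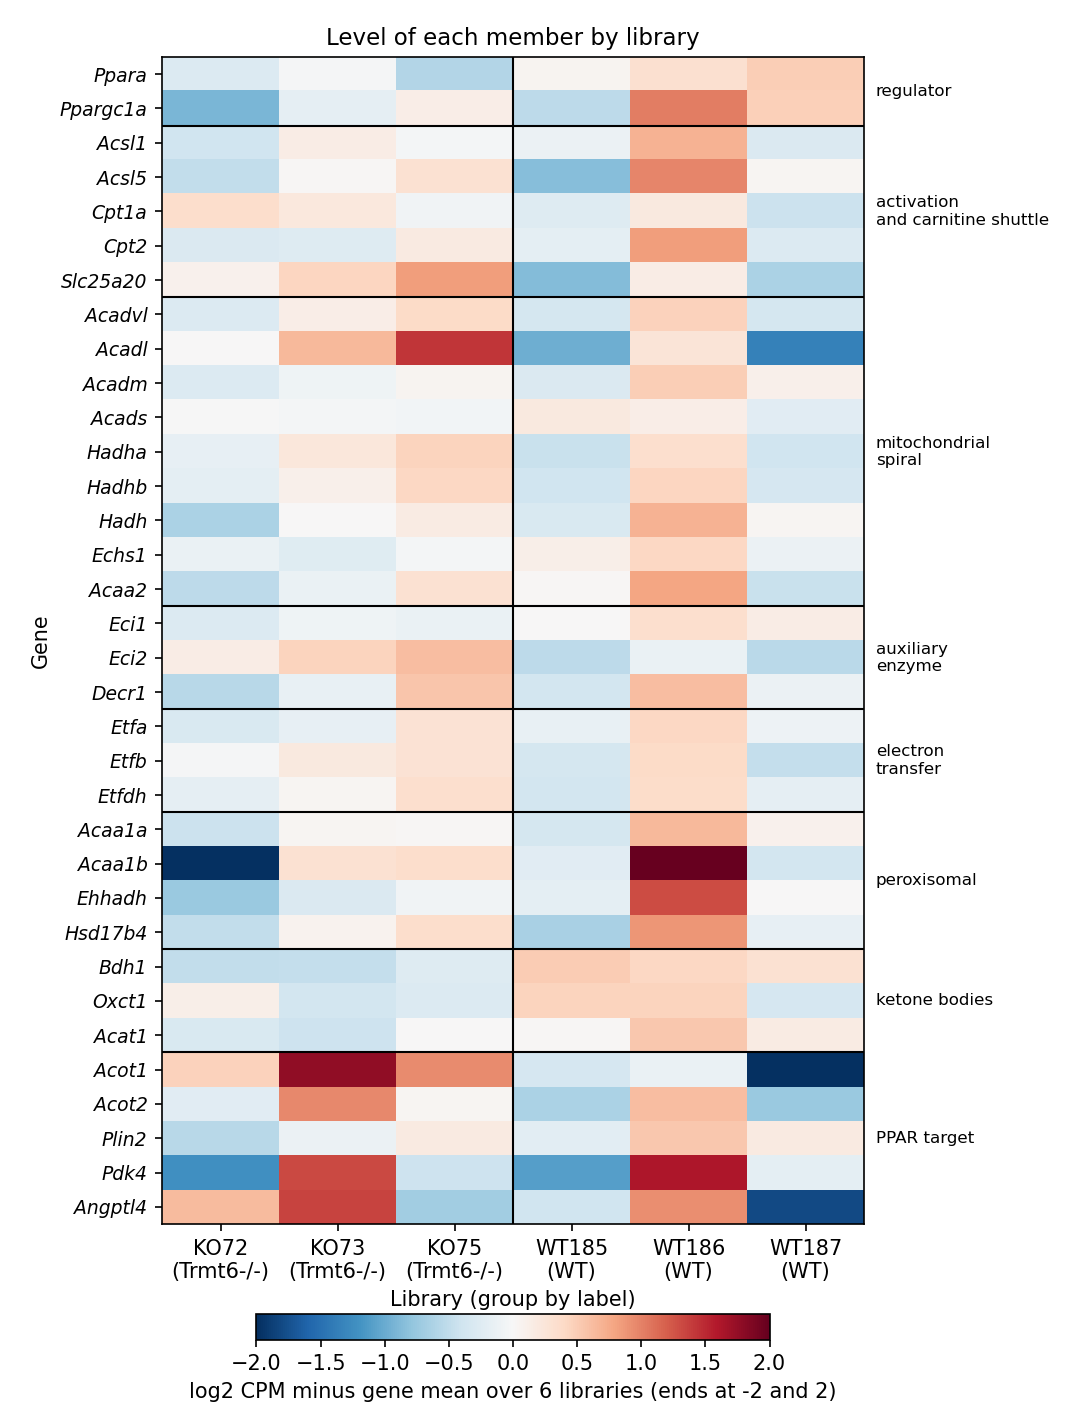
Log2 CPM of each of the 34 genes in each library (columns, group by label), as the difference from the mean of that gene over 6 libraries. Red is higher and blue lower, colours end at -2 and 2, and black lines separate roles and groups. WT186 was the highest library for 22 of the 34 genes.

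Both regulators had lower mean levels in the libraries labelled Trmt6-/-. Ppara, which encodes PPAR-alpha, stood at 33.5, 39.6 and 26.9 CPM against 41.7, 50.5 and 56.7 CPM. The 3 WT libraries were all above the others, with WT185 close to KO73, and the log2 fold change was -0.57 ± 0.20 (SE; adjusted p = 0.322). Ppargc1a encodes PGC-1 alpha, a coactivator of PPARs that promotes mitochondrial biogenesis, and was measured at 31.1, 51.8 and 64.3 CPM against 40.8, 120.0 and 81.8 CPM. WT185 lay within the range of the libraries labelled Trmt6-/-, so the groups overlapped (-0.72 ± 0.42, adjusted p = 0.580). Per kilobase of exon, Ppara (10.8 CPM per kb over all 6 libraries) and Ppargc1a (9.85 CPM per kb) were among the less abundant of the 34 transcripts.

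Acsl5, which encodes the long-chain acyl-CoA synthetase of the small intestine, was the most abundant of the 34 transcripts at 312 CPM per kb. It stood at 997, 1420 and 1730 CPM against 775, 2755 and 1441 CPM, with both the lowest and the highest library in WT (log2 fold change -0.26 ± 0.48, adjusted p = 0.889). Its paralog Acsl1, also an acyl-CoA synthetase gene, reached 8.69 CPM per kb (-0.24 ± 0.29). The carnitine shuttle comprises Cpt1a, the malonyl-CoA-sensitive entry enzyme, Slc25a20, the carnitine-acylcarnitine carrier of the inner membrane, and Cpt2, which restores acyl-CoA in the matrix. Slc25a20 was measured at 112, 142 and 189 CPM against 57.9, 117 and 68.3 CPM. Only KO72 fell below a WT library, WT186, and the mean was 148 ± 38.4 against 81.1 ± 31.6 CPM (SD, n = 3). This is a 1.82-fold difference (log2 0.86 ± 0.32, adjusted p = 0.348). Cpt1a stood at 331, 299 and 247 CPM against 217, 296 and 193 CPM, so KO72 and KO73 were above all WT libraries and KO75 was not (0.31 ± 0.22, adjusted p = 0.655). Cpt2 was higher in WT186 (306 CPM) than in the 5 other libraries (140 to 196 CPM), and its log2 fold change was -0.32 ± 0.33.

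The promoter windows of Slc25a20 and Cpt1a are shown because these shuttle genes are classical PPAR-alpha targets and had the highest log2 fold changes of their role. They run from 250 bases before to 50 bases after the RefSeq start on GRCm38.p6, 5′ to 3′ on the gene strand, at chr9:108661886-108662185 for Slc25a20 and chr19:3323051-3323350 for Cpt1a (both on the + strand). Capitals mark the PPAR half-site AGGTCA on either strand, which reads TGACCT where it lies on the other strand.
Slc25a20: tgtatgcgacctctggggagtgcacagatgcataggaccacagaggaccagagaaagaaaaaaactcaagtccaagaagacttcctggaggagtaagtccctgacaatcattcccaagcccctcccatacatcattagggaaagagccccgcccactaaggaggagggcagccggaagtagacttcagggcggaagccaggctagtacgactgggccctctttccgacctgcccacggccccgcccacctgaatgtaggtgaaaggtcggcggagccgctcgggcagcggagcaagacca
Cpt1a: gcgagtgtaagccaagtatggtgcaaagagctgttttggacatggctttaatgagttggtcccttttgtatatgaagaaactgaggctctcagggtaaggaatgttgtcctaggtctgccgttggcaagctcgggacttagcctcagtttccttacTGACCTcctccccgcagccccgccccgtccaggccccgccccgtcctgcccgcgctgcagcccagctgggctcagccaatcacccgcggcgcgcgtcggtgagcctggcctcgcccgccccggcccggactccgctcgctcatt
The half-site was found at bases 157 to 162 of the Cpt1a window and not in that of Slc25a20. Both strands of all windows were searched for it, for the PPAR element, a direct repeat of AGGTCA with 1 base between the copies, and for the oestrogen-related receptor element TCAAGGTCA, and both longer motifs contain the half-site. Of 31 windows covering 29 of the 34 genes, 5 (16.1%) held the half-site (Acadm, Acadvl, Cpt1a, Echs1 and Plin2), against 16.3% of 32851 promoter windows of the same length. No member window held either longer motif, which 0.0396% (direct repeat) and 0.423% (oestrogen-related receptor element) of all windows did. These are matches of letters in a short window only.

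Of the 9 genes of the mitochondrial spiral, 4 had log2 fold changes above 0 and 5 below, with a median of -0.075. Acadl, the long-chain acyl-CoA dehydrogenase gene, had the largest difference at 249, 388 and 669 CPM against 126, 297 and 96.8 CPM. Only WT186 exceeded the lowest library labelled Trmt6-/-, and the mean was 435 ± 214 against 173 ± 108 CPM. The fold was 2.51 (log2 1.33 ± 0.52, adjusted p = 0.379). The dehydrogenases for other chain lengths had smaller differences: very-long-chain Acadvl had a log2 fold change of 0.13 ± 0.28, medium-chain Acadm -0.23 ± 0.23 and short-chain Acads -0.075 ± 0.15. Exons of Acadvl share 42.9% of their bases with Dvl2, and the counting left out pairs that fit both, so its level is uncertain.

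Hadha and Hadhb encode the alpha and beta subunits of the trifunctional protein, which carries out the last steps for long chains. Hadha stood at 464, 607 and 711 CPM against 381, 656 and 396 CPM (log2 fold change 0.31 ± 0.29), and Hadhb was likewise highest in KO75 and WT186 within the groups (0.17 ± 0.29). Hadh, the 3-hydroxyacyl-CoA dehydrogenase of shorter chains, stood at 371, 577 and 644 CPM against 466, 930 and 591 CPM (-0.32 ± 0.33). The hydratase gene Echs1 had a log2 fold change of -0.30 ± 0.17. Acaa2, the mitochondrial thiolase gene and the most abundant of this role at 152 CPM per kb, was measured at 151, 199 and 271 CPM against 224, 377 and 160 CPM. WT186 was the highest and KO72 the lowest library, and the groups overlapped (-0.29 ± 0.36, adjusted p = 0.821). Adjusted p for the 9 genes ran from 0.379 to 0.911.

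Auxiliary enzymes let the spiral handle double bonds, and here the isomerase genes Eci1 and Eci2 differed in opposite directions. Eci2, whose product works in peroxisomes and mitochondria, stood at 68.9, 84.4 and 95.6 CPM against 43.4, 56.8 and 42.7 CPM. All 3 libraries labelled Trmt6-/- were above all WT libraries, at a mean of 83.0 ± 13.4 against 47.6 ± 7.93 CPM (1.74-fold; log2 0.80 ± 0.19, adjusted p = 0.198). The mitochondrial Eci1 was measured at 46.8, 53.2 and 51.3 CPM against 56.6, 71.6 and 62.7 CPM, with all WT libraries above the others (-0.33 ± 0.14, adjusted p = 0.418). Decr1, the dienoyl-CoA reductase gene, stood at 83.7, 111 and 180 CPM against 95.6, 189 and 113 CPM and showed no separation (-0.086 ± 0.36, adjusted p = 0.958).

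Electrons from the dehydrogenases pass to the flavoprotein of Etfa and Etfb and on to its oxidoreductase Etfdh. Etfa stood at 140, 154 and 210 CPM against 156, 229 and 161 CPM (log2 fold change -0.12 ± 0.23, adjusted p = 0.899). Etfdh had a log2 fold change of 0.11 ± 0.24, and the groups overlapped for all 3 genes of this role. Etfb was counted at only 4.97 to 9.01 CPM, or 6.10 CPM per kb against 95.4 CPM per kb for its partner Etfa. Of the Etfb exon bases, 58.2% were shared with exons of Gm45233 and Mir7051, so its level is uncertain and its part in the low count was not tested.

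All 4 peroxisomal genes had log2 fold changes below 0, from -1.60 to -0.15, and in each WT186 was the highest library. Hsd17b4, the D-bifunctional protein gene and the most abundant of them at 86.9 CPM per kb, stood at 197, 291 and 352 CPM against 177, 509 and 248 CPM (-0.15 ± 0.42, adjusted p = 0.930). Ehhadh, which encodes the L-bifunctional protein and is a classical PPAR-alpha target, was measured at 87.8, 120 and 141 CPM against 129, 364 and 148 CPM (-0.88 ± 0.42, adjusted p = 0.489). The thiolase genes Acaa1a and Acaa1b are near copies on chromosome 9. Acaa1a stood at 199.6, 277 and 274 CPM against 211, 423 and 286 CPM (-0.29 ± 0.29, adjusted p = 0.766). Acaa1b ranged 43.2-fold over the libraries, from 2.77 CPM in KO72 to 119 CPM in WT186, with 23.0 and 23.6 CPM in KO73 and KO75 and 15.9 and 14.4 CPM in WT185 and WT187 (-1.60 ± 1.05, adjusted p = 0.622). Of 100-base windows of Acaa1b transcripts, 19.3% also occur in Acaa1a transcripts. Pairs that lie wholly within such stretches would fit both genes and be left out, so both levels are uncertain. How many pairs were lost in this way was not measured. Without WT186 the log2 fold changes were 0.025 for Acaa1a, 0.14 for Acaa1b, 0.41 for Hsd17b4 and -0.24 for Ehhadh, and the direction turned for all but Ehhadh.

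The ketone body genes were all lower on average in the libraries labelled Trmt6-/-. Bdh1, the mitochondrial dehydrogenase that interconverts acetoacetate and 3-hydroxybutyrate, had the smallest p of the 34 members. It stood at 102, 103 and 120 CPM against 204, 192 and 176 CPM, with a wide gap between KO75 and WT187 and little spread within either group. The log2 fold change was -0.81 ± 0.15 (95% interval -1.16 to -0.46; edgeR unadjusted p = 9.32e-04, adjusted p = 0.142), a level 0.569 times that of WT. Acat1, the acetoacetyl-CoA thiolase that serves both synthesis and use, was measured at 129, 120 and 161 CPM against 162, 232 and 179 CPM. Its groups were separated only by the narrow step from KO75 to WT185 (-0.48 ± 0.20, adjusted p = 0.411). Oxct1, which activates acetoacetate in cells that burn ketones, stood at 170, 121 and 130 CPM against 214, 214 and 124 CPM and overlapped because WT187 was low (-0.39 ± 0.26, adjusted p = 0.626). Exons of Bdh1 share 13.7% of their bases with Gm15743, and those of Oxct1 12.6% with BC037032.

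**Figure D2:**
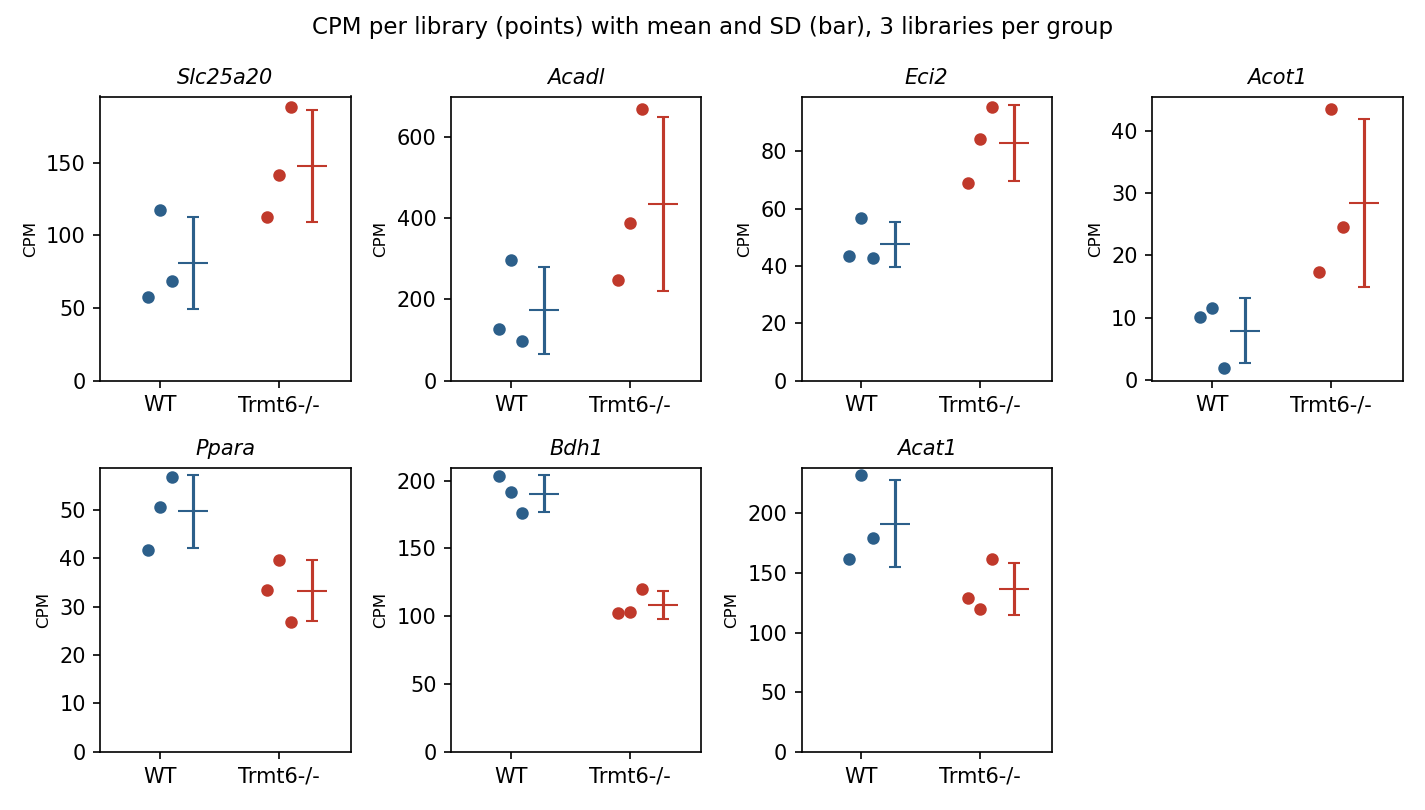
CPM in each library (points) with the mean and SD (bar) of 3 WT libraries and 3 libraries labelled Trmt6-/-, for the 7 members with an unadjusted p below 0.05. The y axes start at or just below 0 and differ between genes. Slc25a20 and Acadl overlapped through WT186, Bdh1 did not overlap (102 to 120 against 176 to 204 CPM), and none passed after adjustment.

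The PPAR targets outside the oxidation pathway split into thioesterases, a lipid droplet coat gene and fuel-switch genes. Acot1 and Acot2 encode acyl-CoA thioesterases of the cytosol and of mitochondria and are neighbours on chromosome 12, 15616 bases apart. Acot1 stood at 17.4, 43.5 and 24.6 CPM against 10.1, 11.6 and 1.92 CPM, without overlap, at a mean of 28.5 ± 13.5 against 7.87 ± 5.21 CPM. Its log2 fold change was 1.85 ± 0.65 (adjusted p = 0.335). Acot2 was measured at 12.4, 28.1 and 14.9 CPM against 9.33, 22.2 and 8.63 CPM and overlapped because WT186 was high (0.47 ± 0.47, adjusted p = 0.773). Of 100-base windows of Acot1 transcripts 9.32% also occur in Acot2, and 17.1% in the reverse comparison, so both levels are uncertain for the same reason.

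The promoter windows of the Acot genes are shown because the transcripts of these neighbours share long identical stretches. Both come from RefSeq on GRCm38.p6 and the + strand, at chr12:84009252-84009551 for Acot1 and chr12:83987611-83987910 for Acot2, and neither has capitals because neither holds a motif that was searched for.
Acot1: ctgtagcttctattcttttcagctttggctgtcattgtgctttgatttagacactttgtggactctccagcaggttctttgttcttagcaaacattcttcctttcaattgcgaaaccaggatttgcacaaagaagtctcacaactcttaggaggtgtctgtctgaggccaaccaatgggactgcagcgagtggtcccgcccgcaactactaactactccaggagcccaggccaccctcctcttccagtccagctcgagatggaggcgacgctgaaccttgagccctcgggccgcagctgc
Acot2: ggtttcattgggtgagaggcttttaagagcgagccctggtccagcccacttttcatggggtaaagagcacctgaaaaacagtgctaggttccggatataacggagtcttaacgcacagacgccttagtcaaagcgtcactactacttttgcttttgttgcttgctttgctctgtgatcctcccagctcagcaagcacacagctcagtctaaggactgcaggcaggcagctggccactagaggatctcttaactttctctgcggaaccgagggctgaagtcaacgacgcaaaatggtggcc
The longest run of identical bases shared by these windows was 9 bases, so the windows are unlike each other.

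Plin2, which coats lipid droplets, stood at 56.2, 76.0 and 94.3 CPM against 71.3, 120.0 and 93.8 CPM (log2 fold change -0.33 ± 0.26, adjusted p = 0.695). Pdk4 restrains the oxidation of glucose when fat is burned and was measured at 21.2, 124 and 37.5 CPM against 23.3, 154 and 43.5 CPM. In each group 1 library, KO73 and WT186, stood far above the other two, and the log2 fold change was -0.27 ± 0.85. Angptl4, a secreted inhibitor of lipoprotein lipase, was high in the same libraries, KO73 (69.3 CPM) and WT186 (51.8 CPM), and lowest in WT187 (7.79 CPM) and KO75 (16.7 CPM). With that spread its log2 fold change of 0.67 ± 0.73 had an interval from -1.06 to 2.41.

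A single WT library set the direction for many members. WT186 was the highest of the 6 libraries for 22 of the 34 genes (64.7%), against 24.7% of all genes tested, and it was the lowest for none. Together the 34 genes came to 5113, 6667 and 7818 CPM against 4925, 10194 and 5797 CPM. KO72 was the lowest library for 14 members, WT185 for 8 and WT187 for 8, where KO72 was the lowest for 17.3% of all genes, WT185 for 20.4% and WT187 for 8.83%. Without WT186, 24 of the 34 had a log2 fold change above 0, with a median of 0.14, where 48.4% of all genes did. In that fit 9 members had an unadjusted p below 0.05 (11.5% of all genes), 7 higher (Slc25a20, Acadl, Eci2, Acot1, Cpt1a, Hadha and Acot2, against 6.84% of all genes) and 2 lower (Ppara and Bdh1, against 4.68%), and none passed after adjustment. With the ileal minus proximal marker index as a covariate, 23 were above 0 where 50.5% of all genes were, and an unadjusted p below 0.05 was reached by Slc25a20, Acadl and Eci2 with higher levels (7.49% of all genes) and by Bdh1 with lower ones (5.56%). Without KO75, 10 of the 34 were above 0, against 47.3% of all genes. The index, on the log2 scale, was 1.91, -0.22 and -3.17 under the Trmt6-/- label and 0.019, -8.12 and -9.78 in WT. It was lower in WT186 and WT187 than in every library labelled Trmt6-/-, so index and label were partly confounded in that fit. Gut position and label thus cannot be told apart here, and the part of gut position in these differences was not tested.

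**Figure D3:**
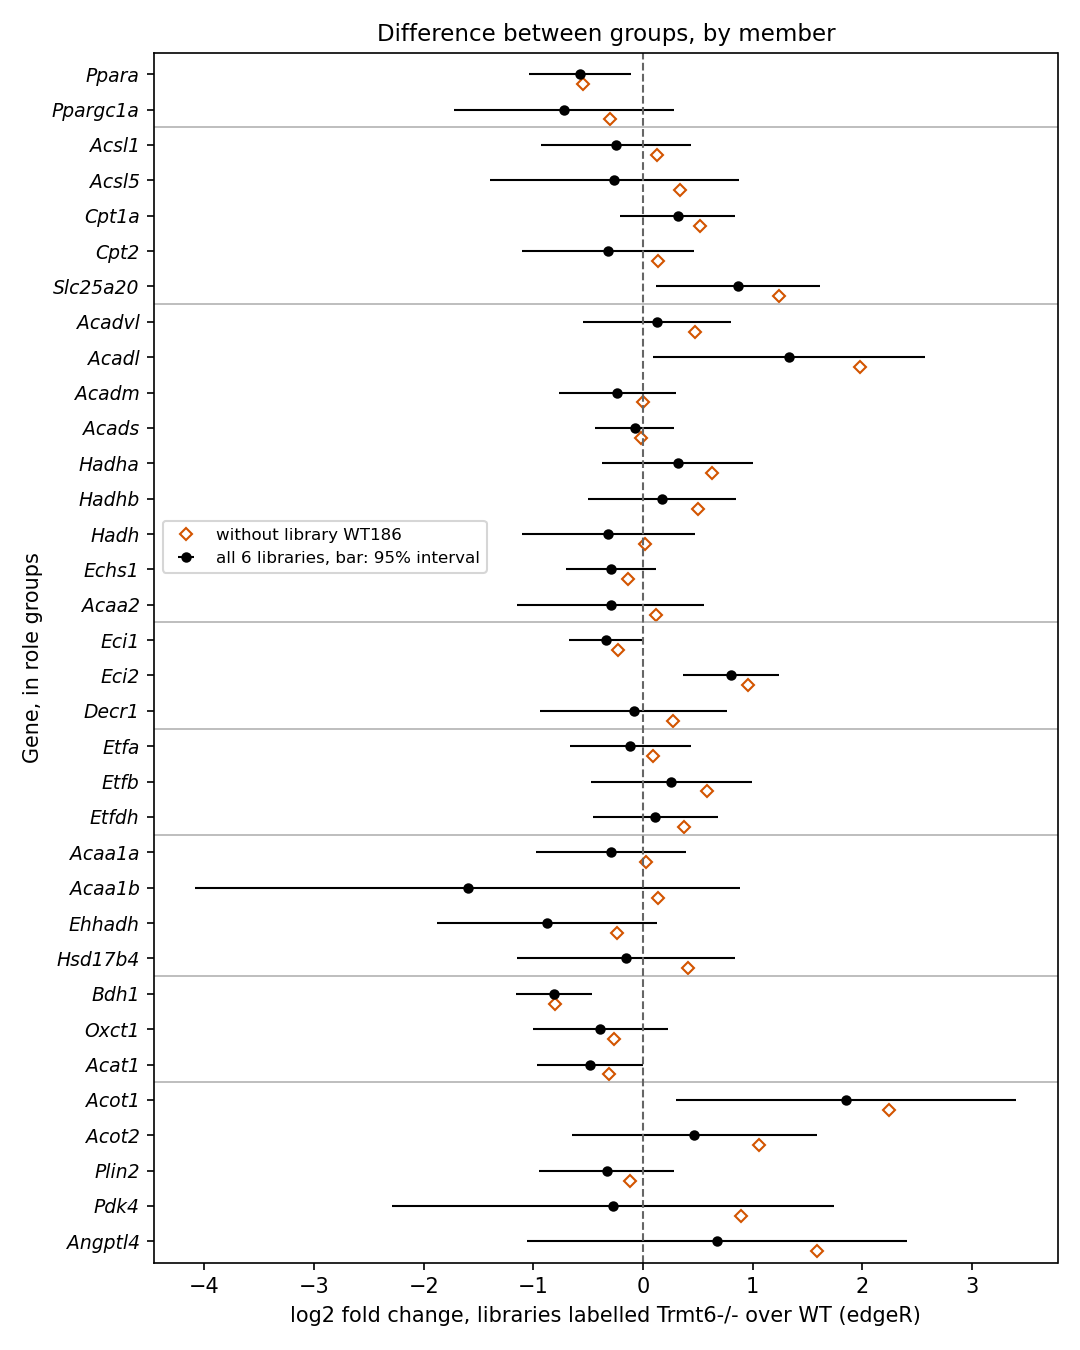
Log2 fold change of each member (libraries labelled Trmt6-/- over WT) with all 6 libraries, bars showing the 95% interval, and without WT186 (open diamonds). Grey lines separate roles. Most diamonds lie to the right of the points, 24 of 34 being above 0 without WT186 against 12 with it, while Bdh1 (-0.80) and Eci2 (0.96) kept their side.

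Ratios between partner genes within a library do not depend on how the libraries were scaled. The pairs were chosen after the levels had been seen, so the ratios are a description, and with 3 against 3 libraries an exact permutation test (two-sided) cannot go below 0.1. How often ratios of other gene pairs separate the groups was not measured, so a ratio without overlap cannot be called unusual. Slc25a20 stood at 0.802, 0.982 and 0.964 times the level of its shuttle partner Cpt2 under the Trmt6-/- label, against 0.386, 0.383 and 0.479 times in WT. The overlap of Slc25a20 itself, which came from KO72 and WT186, was absent from the ratio. Eci2 stood at 1.47, 1.59 and 1.86 times Eci1 against 0.767, 0.793 and 0.681 times. Each of these genes separated the groups by itself, in opposite directions, so their ratio had to separate them as well. Acadl reached 1.97, 2.72 and 4.25 times Acadm against 1.02, 1.38 and 0.595 times. Acot1 stood at 1.40, 1.55 and 1.65 times Acot2 against 1.08, 0.523 and 0.222 times. The groups also lay apart, by a smaller step, for the trifunctional subunits, with Hadha at 2.04, 2.18 and 2.05 times Hadhb against 1.93, 1.86 and 1.91 times. Etfa stood lower relative to Etfdh, at 1.06, 1 and 1.11 times against 1.35, 1.19 and 1.23 times. Acadl relative to Acadvl also lay apart, at 2.47, 2.91 and 4.24 times against 1.33, 1.77 and 1.02 times. The groups overlapped for Cpt1a relative to Cpt2 (2.36, 2.07 and 1.26 against 1.45, 0.967 and 1.35 times). They also overlapped for Acaa1b relative to Acaa1a (0.0139, 0.0832 and 0.0863 against 0.0754, 0.282 and 0.0503 times). Bdh1 overlapped between groups relative to Oxct1 (0.601, 0.850 and 0.927 against 0.952, 0.897 and 1.42 times) and relative to Acat1 (0.792, 0.862 and 0.744 against 1.26, 0.825 and 0.982 times). Its partners were also lower on average under the Trmt6-/- label, so these ratios do not rank Bdh1 against Slc25a20 or Eci2.

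**Figure D4:**
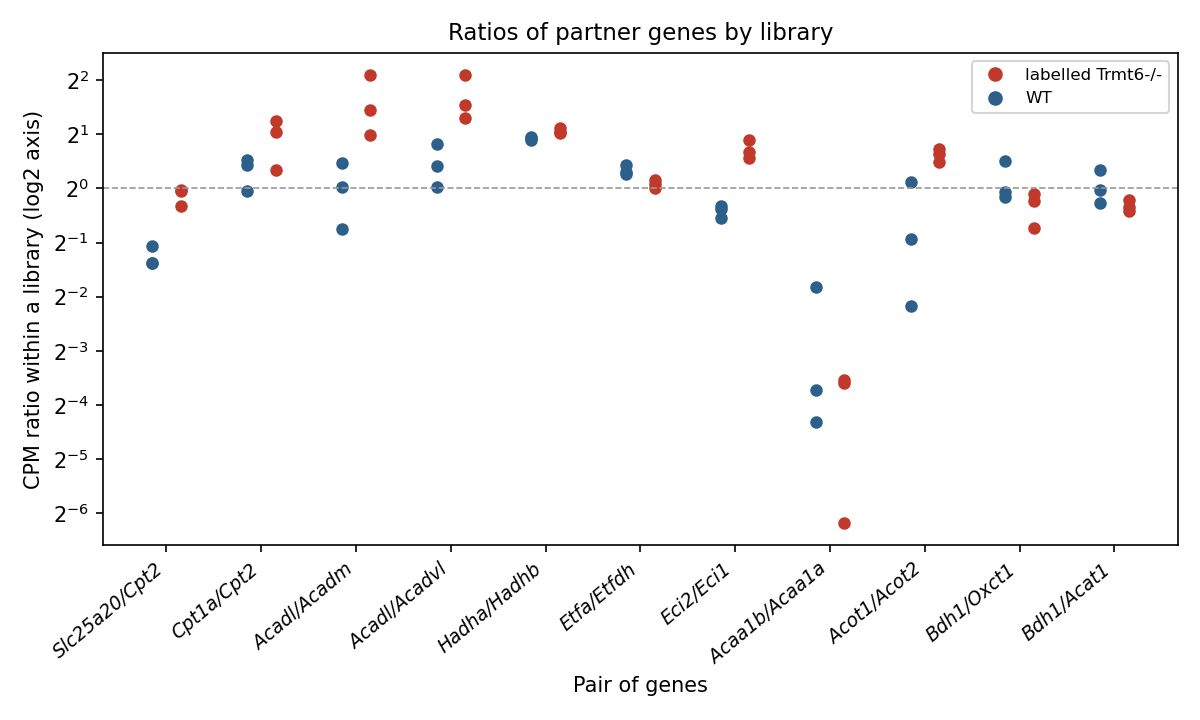
Ratio of CPM between partner genes within each library, on a log2 axis, with points for WT libraries (blue) and libraries labelled Trmt6-/- (red). The groups lie apart for Slc25a20/Cpt2 (0.802 to 0.982 against 0.383 to 0.479) and Eci2/Eci1, and by a smaller step for Hadha/Hadhb (2.04 to 2.18 against 1.86 to 1.93).

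The further genes of the pathway give the wider setting. Of 105 matched genes 91 were tested, none passed after adjustment, while an unadjusted p below 0.05 was reached by 8 genes with higher and 6 with lower levels under the Trmt6-/- label, against 6.15% and 5.94% of all genes. Their median log2 fold change was -0.14, with 32 above 0 and 59 below. These signs, and those of the receptors and coactivators that follow, come from all 6 libraries. They were not recomputed without WT186, on which the signs of many members depended. Of the receptors and coactivators 11 of 13 were below 0, where 46.1% of all genes were above 0, and only Ppargc1b reached an unadjusted p below 0.05. This gene encodes the coactivator PGC-1 beta and stood at 19.2, 21.4 and 24.1 CPM against 35.7, 36.7 and 31.0 CPM (-0.68 ± 0.16, adjusted p = 0.202). Ppard, the gene of the PPAR delta receptor, stood at 129, 168 and 164 CPM against 190, 205 and 199 CPM (-0.37 ± 0.16, adjusted p = 0.432). Acacb, whose product makes the malonyl-CoA that inhibits Cpt1a, was measured at 15.9, 23.0 and 20.6 CPM against 9.43, 4.16 and 3.42 CPM (1.80 ± 0.42, adjusted p = 0.201). Among peroxisomal genes Acox2, the branched-chain acyl-CoA oxidase gene, stood at 25.4, 43.3 and 38.0 CPM against 3.60, 20.3 and 2.40 CPM (2.03 ± 0.78, adjusted p = 0.372). Slc27a2, a very-long-chain fatty acid transporter and synthetase gene, stood at 45.4, 99.8 and 83.6 CPM against 124, 276 and 121 CPM (-1.19 ± 0.42, adjusted p = 0.338). Vnn1, a pantetheinase gene and PPAR target, had a log2 fold change of 0.97 ± 0.40 (adjusted p = 0.404). The lowest adjusted p of the further genes, 0.173 with edgeR, was that of Pdk1 and Acad8. Pdk1 stood at 112, 110 and 118 CPM against 70.7, 64.3 and 78.2 CPM (0.67 ± 0.13). Acad8 was measured at 46.5, 46.0 and 69.8 CPM against 29.8, 25.0 and 24.0 CPM (1.04 ± 0.21).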

How the data were processed

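The members and gene lists were chosen with earlier results of these data known. Per the labels' protocols, total RNA (ZYMO kit) was reverse transcribed and amplified before library preparation with a Vazyme TruePrep kit. Per the file headers, the deposited counts are whole paired-end counts per gene from featureCounts 2.0.1 on the GENCODE M23 annotation, with no strand, multimapping or overlap option given, so pairs that fit several genes or places were left out. The submitters' processing notes name fastp, HISAT2 and mm10. No molecular identifiers are stated. The p-values weigh the difference between groups against the spread between these libraries, which may be technical.

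The name of each library column gives its group and an animal's number, which ties it to a group but to no single labelled sample. Gene symbols were joined by Ensembl identifier from GENCODE M21 (55154 of 55335 matched). Library totals were 15213972 to 16972758 counts. After filterByExpr and TMM scaling, 14107 genes entered edgeR 4.0.16 (R 4.3.3), whose quasi-likelihood test compared the genotypes without a covariate, and p-values were adjusted by Benjamini-Hochberg over these genes, with a threshold of 0.05. SE is the size of the log2 fold change divided by the square root of F, and intervals are 95%. CPM per kb divides by the exon length the authors deposited beside the counts (unit: other). The procedure was tested on simulated data. All members were to be accounted for. Some genes of the list of further pathway genes are not reported here. By rule, values in all libraries were given for members with an unadjusted p below 0.05, the most abundant per kb of each role, the regulators, the near-identical pairs and Bdh1; other genes with such values were picked after their values were seen. Alternatives were RLE, upper-quartile and library-total scaling, no low-count filter, a floor of 1 CPM in 3 libraries, DESeq2 1.42.0, limma-voom (limma 3.58.1), each library left out in turn, and a covariate of gut position (mean log2 of CPM + 0.5 of Fabp6 and Slc10a2 minus that of Gata4 and Lct).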

Additional observations from a re-analysis of the deposited data

How the results depend on the processing

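No paired analysis was possible because the library columns carry animal numbers and not the replicate numbers of the labels. The count of genes past the threshold over all genes, 6 with edgeR, was 0 with library totals, limma-voom or the position covariate, 159 without a low-count filter and 633 with DESeq2, and 0 to 6 with a library left out (0 without KO73, KO75, WT186 or WT187). The count of members past it, 0 with edgeR, was 2 with DESeq2 and 0 under the other 13 alternatives. The number of members above 0, 12 with edgeR, was 23 with the position covariate and 10 to 24 with a library left out, the lowest without KO75 and the highest without WT186. Of 18 genes recomputed under 14 alternatives (252 values), 9 kept their direction throughout, including Ppara, Slc25a20, Acadl, Eci2, Bdh1, Acat1 and Acot1, and 9 turned at least once (17 values). The genes named here are those with an unadjusted p below 0.05 in the edgeR fit of all libraries. The alternatives reuse those libraries, so a kept direction is no independent support. With the position covariate Ppargc1a turned to 0.13, Acsl5 to 0.62, Decr1 to 0.39, Etfa to 0.12, Acaa1a to 0.14, Hsd17b4 to 0.52 and Plin2 to 0.074. With a library left out log2 fold changes ran from -0.58 to 0.34 for Acsl5, -0.55 to 0.12 for Acaa2, -0.44 to 0.27 for Decr1, -0.30 to 0.095 for Etfa, -0.48 to 0.025 for Acaa1a, -2.03 to 0.14 for Acaa1b and -0.42 to 0.41 for Hsd17b4, with the highest value of each without WT186. The adjusted p of Bdh1 ran from 7.1e-05 (DESeq2) to 0.586 and that of Eci2 from 0.021 (DESeq2) to 0.599. The cause of these changes was not tested.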
